A study of Mus musculus with 4 samples.

Results

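S1pr1, Klf2, Ccr7, Lef1, Tcf7, Satb1 and Cd69 are 7 genes of lymphocyte circulation, of exit from or retention in a tissue, or of a naive or stem-like state. They were taken by name from the 31053 features of the count tables and read in 7 marker-gated lymphocyte types, as UMIs (unique molecular identifiers, 1 per captured transcript) per 10000 UMIs of the gate. All 7 genes were found in every library. In GRCm38 (GENCODE M21) the protein-coding genes lie at chr3:115710433-115715072 (S1pr1, minus strand), chr8:72319033-72321656 (Klf2, plus), chr11:99144196-99155077 (Ccr7, minus), chr3:131110471-131224356 (Lef1, plus), chr11:52252371-52283014 (Tcf7, minus), chr17:51736187-51833290 (Satb1, minus) and chr6:129267325-129275436 (Cd69, minus).

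The material was CD45+ DAPI- immune cells sorted from control skin or from excised skin tumors and run on the 10x Genomics 3′ platform. Control skin came from 2 uninoculated C57/BL6 mice. Skin tumor came from 2 mice of the same strain that carried a subcutaneous flank tumor of the 2323 cell line, a line made from a tumor of a genetically engineered mouse model. The hosts were young adults of both sexes, and tumors were taken once they had grown. The tumor is thus a graft of 1 cell line under the skin of mice that did not carry its alleles. Each library is 1 replicate by its label. The p-values of tumor against control within a gate measure the spread between these libraries. Those of comparisons between gates come from models with the library as a block. They measure the spread that is left between gates of the same libraries, pooled over all gates.

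The passage of T cells between blood, lymph node and tissue is steered by receptors. CCR7 is the chemokine receptor that guides cells to lymphatics and lymph nodes. S1PR1 senses sphingosine-1-phosphate and lets cells leave a tissue, and KLF2 is the transcription factor that switches S1pr1 on. CD69, induced on activation and kept on resident cells, binds the S1PR1 protein and takes it off the surface. LEF1 and TCF-1 (the product of Tcf7) are related transcription factors of naive and stem-like T cells, and SATB1 organises chromatin in T cells and their precursors.

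After quality filters 2981 and 3089 cells of control skins 1 and 2 and 4784 and 1994 cells of skin tumors 1 and 2 were kept. Gated lymphocytes made up 37.2% and 32.0% of them in control skin and 12.8% and 13.6% in tumor. The CD8 T gate (alpha beta T cells with Cd8a or Cd8b1) held 145, 48, 278 and 42 cells, in the order control skin 1, control skin 2, skin tumor 1, skin tumor 2, which is kept throughout. The CD4 T gate (Cd4, no Foxp3) held 75, 37, 114 and 91 cells and the Treg gate (Foxp3) 32, 30, 94 and 46. The DETC gate (dendritic epidermal T cells, gamma delta T cells without IL-17 program genes) held 515, 601, 16 and 23 cells, and the NK gate 21, 16, 82 and 50. The ILC2 gate (group 2 innate lymphoid cells) held 198, 162, 22 and 18 cells. IL-17 type gamma delta T cells numbered 123 and 95 in control skin but 4 and 2 in tumor, too few for a tumor comparison. The 27 markers of other lineages summed to 1.01 to 2.01 UMIs per 10000 in the gates of control skin and 0.328 to 5.98 in those of tumor, against 111 to 151 in macrophages. The gates admitted only cells with at most 10 UMIs per 10000 of these markers, and macrophages were gated on C1q genes among them. These sums thus follow from the gating and are no separate check of purity. Pairs of libraries shared 1 to 7 cell barcodes.

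The tumor cells of a few gates differed from those of control skin in markers of their type. In the DETC gate Tcrg-C1, a gamma chain gene of these cells, stood at 5.76, 6.45, 0.748 and 4.09 UMIs per 10000, and Klre1, an NK receptor gene, at 0.0646, 0.0345, 2.92 and 0.0961. The DETC gate of skin tumor 1 was therefore a set of Trdc-positive cells low in Tcrg-C1. In the ILC2 gate Areg, a product of these cells, stood at 7.95, 5.49, 0.457 and 0.826. Il1rl1, the IL-33 receptor gene of these cells, stood at 0.504, 0.505, 1.10 and 0.787. The 4 check markers of this gate together (Il1rl1, Il18r1, Areg and Klrg1) summed to 18.2, 13.9, 7.40 and 2.91. The tumor cells of the ILC2 gate were thus low in the markers of their type as a set. Ikzf2 stood at 8.57, 9.26, 39.6 and 8.07 in this gate, high in skin tumor 1 alone. The tumor cells of this gate had median depths of 2778 and 2986 UMIs against 5747 and 7418 in control skin. The 18 cells of skin tumor 2 still summed to 254140 UMIs, against 109522 in the 22 cells of skin tumor 1. Most of the sum of skin tumor 2 thus came from its deeper cells. Treg cells of tumor held less Ctla4 (30.8, 30.4, 14.9 and 13.4) and less Il2ra (14.1, 9.86, 4.01 and 3.70), both inhibitory or cytokine receptor genes of Tregs. The 4 check markers of the Treg gate together (Il2ra, Ctla4, Ikzf2 and Tnfrsf18) fell less steeply, at 94.5, 80.6, 66.2 and 53.0. NK cells of tumor held more Gzma, a marker not used in the gate (6.04, 8.03, 19.2 and 29.7). The integrin genes Itga1 (log2 change -3.56 ± 0.50 SE, edgeR adjusted p = 0.0114) and Itgae (-6.64 ± 0.84, adjusted p = 0.00749) were lower in them. The part of these shifts in the results was not tested.

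Control skin was read first, since it shows where the 7 genes lie in skin of mice without a tumor. S1pr1 was highest in CD4 T cells, at 0.900 and 0.909 UMIs per 10000 in control skins 1 and 2. CD8 T cells stood at 0.572 and 0.670 and Tregs at 0.236 and 0.798, which overlapped. IL-17 type gamma delta T cells followed at 0.169 and 0.129. ILC2 cells (0.0750 and 0.0650) and NK cells (0.0765 and 0.0449) overlapped each other. In DETC, epidermal cells that stay in place, only 2 and 3 UMIs of S1pr1 were counted among 515 and 601 cells. In edgeR's quasi-likelihood test against CD8 T cells, with Benjamini-Hochberg adjustment over 9490 genes, S1pr1 was lower in DETC (adjusted p = 1.49e-08) and in ILC2 (log2 difference -3.10 ± 0.40 SE, adjusted p = 4.29e-05). It was also lower in IL-17 type cells (-1.95 ± 0.35, adjusted p = 0.000617) and in NK cells, which held 2 and 1 UMIs (adjusted p = 0.00361).

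Klf2 ran in another order, with NK cells at its top. NK cells held 1.53 and 2.42 UMIs per 10000, above CD8 T cells at 1.01 and 0.864, and this difference missed the threshold (log2 0.91 ± 0.28 SE, edgeR adjusted p = 0.0534). CD4 T cells (0.456 and 0.358) and Tregs (0.354 and 0.417) overlapped, and so did DETC (0.114 and 0.116) and ILC2 (0.0886 and 0.116). IL-17 type cells lay between these pairs, at 0.209 and 0.338. Against CD8 T cells Klf2 was lower in DETC (log2 difference -2.91 ± 0.26 SE, edgeR adjusted p = 2.98e-07), in ILC2 (-3.22 ± 0.32, adjusted p = 3.47e-06), in IL-17 type cells (-1.79 ± 0.28, adjusted p = 0.000186) and in Tregs (-1.45 ± 0.35, adjusted p = 0.0121). NK cells were thus low in S1pr1 while their Klf2 was at least at the CD8 T level in both skins.

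Ccr7 was highest in Tregs, at 2.89 and 1.46 UMIs per 10000, followed by ILC2 at 1.52 and 0.931, and the ranges of these gates overlapped. CD4 T cells (0.490 and 0.826), IL-17 type cells (0.807 and 0.306), CD8 T cells (0.359 and 0.247), NK cells (0.535 and 0.0449) and DETC (0.331 and 0.178) each overlapped their neighbour in this order. Against CD8 T cells Ccr7 was higher in Tregs (log2 difference 2.72 ± 0.38 SE, edgeR adjusted p = 0.000168) and in ILC2 (2.06 ± 0.36, adjusted p = 0.000723). The gene's usual high user in skin, the mature dendritic cell gated by Fscn1 and Cacnb3, held 14.0 and 20.8 UMIs per 10000 in 7 and 8 cells.

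Lef1 and Tcf7 are close relatives but ran in different orders over the gates of control skin. Lef1 was highest in CD4 T cells (0.752 and 0.826 UMIs per 10000). CD8 T cells (0.420 and 0.493), NK cells (0.0765 and 0.808) and Tregs (0.354 and 0.278) overlapped their neighbours below it. ILC2 (0.157 and 0.130), IL-17 type cells (0.0451 and 0.0322) and DETC (0.00166 and 0.0129) did not overlap, in falling order. Against CD8 T cells Lef1 was lower in DETC (log2 difference -5.65 ± 0.58 SE, edgeR adjusted p = 1.1e-06), in IL-17 type cells (-3.42 ± 0.58, adjusted p = 0.000426) and in ILC2 (-1.65 ± 0.48, adjusted p = 0.0258).

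Tcf7, in contrast, was well present in both gamma delta gates, and it was also found in the innate cells. DETC held 1.01 and 0.961 UMIs per 10000, IL-17 type cells 0.993 and 0.925, and ILC2 0.811 and 0.809. NK cells (1.49 and 1.17) and CD8 T cells (1.47 and 1.15) overlapped each other above these, and CD4 T cells stood at 1.14 and 0.551. Tregs stood apart with 3 and 0 UMIs in all, or 0.0886 and 0 UMIs per 10000. For control skin 2 the upper limit is 0.104 if 3 counts are taken as the floor. Tcf7 was lower in Tregs than in CD8 T cells (edgeR adjusted p = 2.75e-05) and did not pass the test in the other 5 gates, where the adjusted p ran from 0.0727 in ILC2 to 0.923 in NK cells.

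Satb1 was highest in NK cells at 7.34 and 8.08 UMIs per 10000, well above ILC2 at 2.05 and 2.39. CD8 T cells (2.02 and 1.68), CD4 T cells (1.71 and 1.90) and IL-17 type cells (1.62 and 1.86) overlapped, and Tregs (1.09 and 0.417) overlapped DETC (0.548 and 0.413). Against CD8 T cells Satb1 was higher in NK cells (log2 difference 1.95 ± 0.23 SE, edgeR adjusted p = 5.7e-05) and lower in DETC (-1.81 ± 0.23, adjusted p = 9.93e-06) and in Tregs (-1.40 ± 0.30, adjusted p = 0.00565). After each cell was thinned to 2000 UMIs, Satb1 was found in 57.1% and 56.2% of control NK cells, and unthinned in 85.7% and 93.8%.

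Cd69 was the most evenly spread of the 7 genes in control skin. It ran from 2.08 and 1.55 UMIs per 10000 in CD8 T cells to 0.974 and 1.08 in Tregs, and the only neighbours in its order that did not overlap were CD4 T cells (1.58 and 1.43) and IL-17 type cells (1.3 and 1.17). It was lower than in CD8 T cells in Tregs (log2 difference -0.97 ± 0.23 SE, edgeR adjusted p = 0.011), in ILC2 (-0.71 ± 0.19, adjusted p = 0.0145) and in DETC (-0.49 ± 0.17, adjusted p = 0.0417).

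Of the 7 genes, 5 differed from CD8 T cells in DETC, 5 in ILC2, 5 in Tregs, 3 in IL-17 type cells, 2 in NK cells and none in CD4 T cells. Over all 9490 genes the share that differed was 33.9% in DETC, 16.6% in ILC2, 11.5% in Tregs, 22% in IL-17 type cells, 8.17% in NK cells and 1.5% in CD4 T cells. For CD4 T cells, 964 of the genes had an unadjusted p under 0.05, among them Klf2, Ccr7 and Tcf7 of the 7. The plot of control skin levels against CD8 T cells shows the gaps for S1pr1 and Lef1 in DETC.

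**Figure D1:**
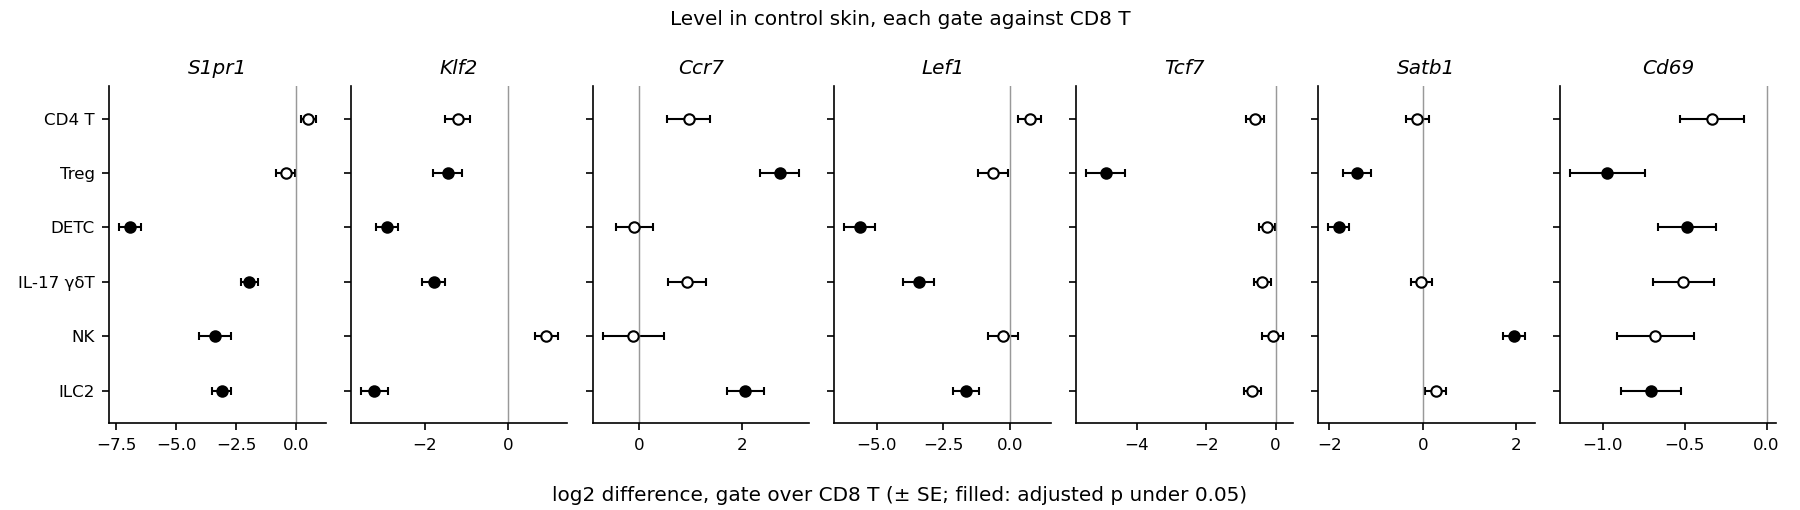
Log2 difference in UMIs per 10000 between each gate and CD8 T cells in the 2 control skins, 1 panel per gene (x axis, log2 scale, ranges differ between panels; y axis, gate). Points are edgeR estimates, bars 1 SE, and filled points passed an adjusted p of 0.05; S1pr1 and Lef1 lie lowest in DETC, Tcf7 in Tregs, and Satb1 lies highest in NK cells.

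The tumor comparison asked which of these genes differ within a gate between excised tumors and control skin of other mice. The tissue sampled differs together with the tumor, so their effects cannot be told apart. In CD8 T cells Lef1 was higher and Tcf7 and S1pr1 were lower in tumor. Lef1 stood at 0.420, 0.493, 1.24 and 1.26 UMIs per 10000 in control skins 1 and 2 and skin tumors 1 and 2. Tcf7 stood at 1.47, 1.15, 0.394 and 0.488. The relatives thus moved in opposite directions. The log2 change was 1.34 ± 0.24 SE for Lef1 (edgeR adjusted p = 0.0101) and -1.77 ± 0.26 for Tcf7 (adjusted p = 0.00477). S1pr1, at 0.572, 0.670, 0.274 and 0.379, changed by -1.12 ± 0.29 on the log2 scale (adjusted p = 0.0453). These 3 calls of 7 compare with 9.72% of the 8131 genes tested in the CD8 T gate. The S1pr1 call was lost in DESeq2 (adjusted p = 0.178), with a ceiling of 20 for other-lineage UMIs (0.0848), with no TMM factors (0.0701) and without control skin 1, control skin 2 or skin tumor 1 (0.158, 0.144 and 0.174), and the Lef1 call without control skin 1 or 2 (0.12 and 0.0626).

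The other 4 genes did not pass the test in CD8 T cells. Klf2, at 1.01, 0.864, 0.805 and 2.19 UMIs per 10000, was high in skin tumor 2 alone (edgeR adjusted p = 0.568). Satb1, at 2.02, 1.68, 2.22 and 5.15, was likewise highest in skin tumor 2 (adjusted p = 0.190). Cd69 was at 2.08, 1.55, 1.32 and 0.885 (adjusted p = 0.0877). Ccr7 was at 0.359, 0.247, 0.401 and 0.686 (adjusted p = 0.368).

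Cycling cells, those with 2 or more UMIs of Mki67 and Top2a together, moved with this comparison. They made up 26.2%, 22.9%, 57.9% and 28.6% of CD8 T cells and 33.3%, 33.2%, 74.0% and 42.1% of the UMIs summed. Without them S1pr1 stood at 0.575, 0.607, 0.638 and 0.655 UMIs per 10000, all 4 close together, and the call was lost (log2 0.06 ± 0.28 SE, edgeR adjusted p = 0.942). In cycling CD8 T cells of tumor it was at 0.147 and 0, against 0.566 and 0.797 in those of control skin, from 38, 11, 161 and 12 cells.

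Lef1 and Tcf7 answered the same step differently. Among CD8 T cells that were not cycling Lef1 stood at 0.356, 0.528, 2.25 and 1.28 UMIs per 10000 and the change was larger (log2 2.05 ± 0.35 SE, edgeR adjusted p = 0.00734). Tcf7, at 1.56, 1.16, 0.876 and 0.655, kept its direction and lost the call (-0.88 ± 0.28, adjusted p = 0.0983). Klf2 (0.958, 1.03, 2.07 and 2.28) and Satb1 (2.34, 2.43, 5.28 and 5.65) were higher in tumor and passed in these cells. Their log2 changes were 1.05 ± 0.22 (adjusted p = 0.0206) and 1.12 ± 0.21 (adjusted p = 0.0108). The plot of cycling and other CD8 T cells shows all 7 genes.

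**Figure D2:**
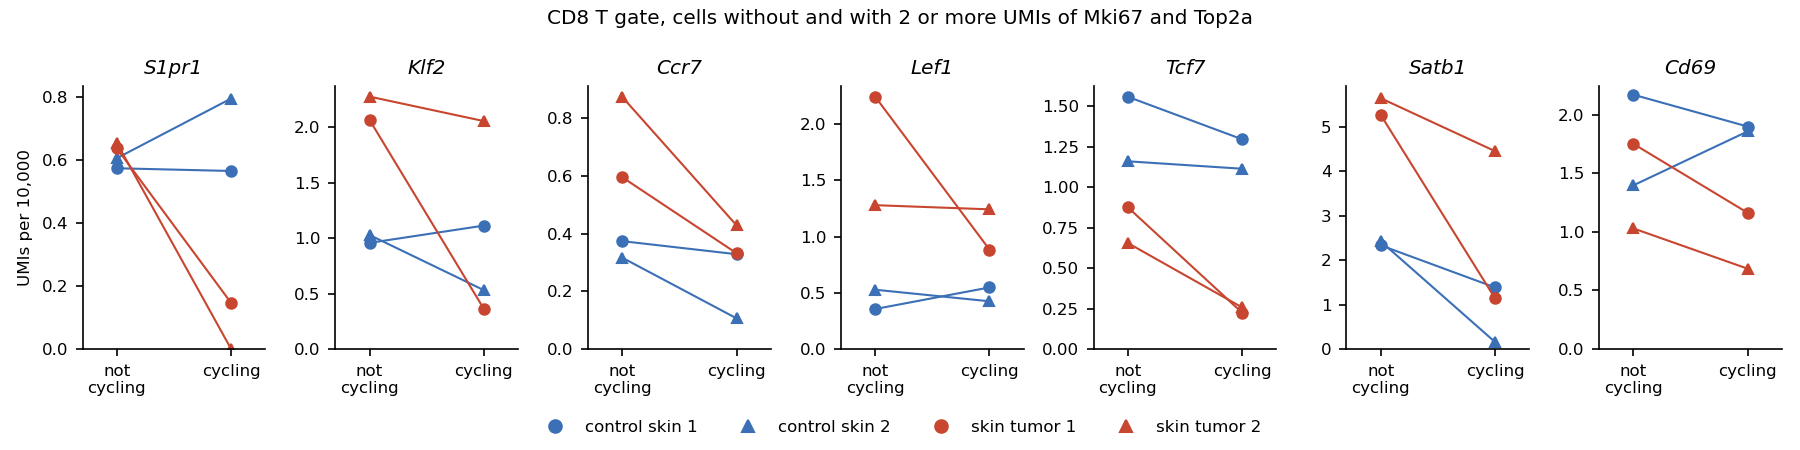
UMIs per 10000 (y axis, linear, ranges differ between panels) of each gene in CD8 T cells without and with 2 or more UMIs of Mki67 and Top2a together (x axis), 1 line per library. Outside the cycling cells S1pr1 lies between 0.575 and 0.655 in all 4 libraries, while Klf2, Lef1 and Satb1 lie higher in both tumors than in both control skins.

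The shares of CD8 T cells told the same order. With each cell thinned to 2000 UMIs and none left out, Lef1 was found in 5.53% ± 1.93 of control and 16.1% ± 2.62 of tumor CD8 T cells (mean ± SD, n = 2 libraries). Unthinned it was found in 17.2%, 20.8%, 41.7% and 28.6%. Tcf7 was found in 18.7% ± 5.78 of control and 9.26% ± 0.38 of tumor cells, and unthinned in 69.0%, 66.7%, 21.2% and 31.0%. In macrophages, which should lack both genes, the thinned shares were at most 0.193% for Lef1 and 0.193% for Tcf7, at median depths of 13864 to 19778.5 UMIs. S1pr1 was found in 12.5% ± 3.0 of control and 5.62% ± 1.21 of tumor CD8 T cells, against up to 4.41% in macrophages. The shares were not tested, and an exact permutation test of 2 against 2 libraries cannot give a p under 0.33.

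In CD4 T cells Ccr7 was the gene that changed. It stood at 0.490, 0.826, 1.76 and 2.69 UMIs per 10000, a log2 change of 1.77 ± 0.31 SE (edgeR adjusted p = 0.009). This was 1 call of 7, beside 8.72% of the 7772 genes tested. Without cycling cells it was 2.18 ± 0.36 (edgeR adjusted p = 0.00306), and without control skin 1 the call was lost (adjusted p = 0.152). Ccr7 was found in 8%, 2.70%, 15% and 19.8% of the thinned CD4 T cells, with 2.21% to 4.55% in thinned macrophages. Among unthinned CD4 T cells the shares were 14.7%, 21.6%, 24.6% and 25.3%. The rise was not particular to T cells. Neutrophils held 0 to 0.179 UMIs per 10000 of Ccr7 in control skin and 0.506 to 1.98 in tumor. Macrophages held 0.0695 to 0.28 and 0.324 to 0.326. Mature dendritic cells went the other way, from 14.0 to 20.8 in control skin against 3.175 to 6.78 in tumor. Levels in these reference cells were not tested.

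The remaining genes of the CD4 T gate did not pass. S1pr1 differed little between the 4 libraries (0.900, 0.909, 0.828 and 0.806 UMIs per 10000, log2 change -0.20 ± 0.23 SE, edgeR adjusted p = 0.648). Klf2 (0.456, 0.358, 0.969 and 0.649, adjusted p = 0.119) and Lef1 (0.752, 0.826, 1.38 and 1.12, adjusted p = 0.141) were higher in both tumors without passing. Tcf7, Satb1 and Cd69 overlapped between the groups, with adjusted p of 0.362, 0.971 and 0.91.

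In Tregs Lef1 and Satb1 were higher in tumor. Lef1 stood at 0.354, 0.278, 1.41 and 0.900 UMIs per 10000, a log2 change of 1.88 ± 0.38 SE (edgeR adjusted p = 0.0314). Satb1 stood at 1.09, 0.417, 2.27 and 3.65, a change of 1.95 ± 0.41 (adjusted p = 0.0351). The 2 calls of 6 genes tested compare with 3.54% of the 6038 genes tested. Klf2, at 0.354, 0.417, 0.908 and 1.90, missed narrowly (1.85 ± 0.44, adjusted p = 0.0534) and passed without cycling cells (2.28 ± 0.44, adjusted p = 0.0239). The Treg calls rested on few cells. In 1 alternative the gate asked for 2 UMIs of Foxp3, and of the alpha beta T cell receptor gene Trac, in place of 1. There Lef1 was at 1.53 (edgeR adjusted p = 0.231) and Satb1 at 1.49 (adjusted p = 0.169). Without control skin 1 or 2 neither gene passed in edgeR (adjusted p of 0.158 and 0.193 for Lef1, 0.0861 and 0.219 for Satb1), and in DESeq2 Lef1 did not pass (0.0849).

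Tcf7 was counted 7 and 11 times in tumor Tregs, or 0.0669 and 0.190 UMIs per 10000, too few to pass the filter on low counts. Ccr7 was already high in control Tregs and overlapped between groups (2.89, 1.46, 3.64 and 1.82 UMIs per 10000, edgeR adjusted p = 0.692). S1pr1 (0.236, 0.798, 0.382 and 0.329, adjusted p = 0.681) and Cd69 (0.974, 1.08, 0.937 and 0.865, adjusted p = 0.8) did not pass.

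Lef1 and Satb1 moved together in Tregs, and the sequence before their first listed RefSeq start is shown for that reason, 5′ to 3′ from GRCm38.p6. Lef1 is at chr3:131110047-131110296 on the plus strand and Satb1 at chr17:51833291-51833540 on the minus strand, both 250 bases upstream of the start and outside the exons that GENCODE M21 gives the gene. Capitals mark matches to the letters searched on both strands, which were CTTTGAA and CTTTGAT (TCF/LEF), GTAAACA (FOXO), CCACCC (KLF) and CCAAT (NF-Y).
Lef1: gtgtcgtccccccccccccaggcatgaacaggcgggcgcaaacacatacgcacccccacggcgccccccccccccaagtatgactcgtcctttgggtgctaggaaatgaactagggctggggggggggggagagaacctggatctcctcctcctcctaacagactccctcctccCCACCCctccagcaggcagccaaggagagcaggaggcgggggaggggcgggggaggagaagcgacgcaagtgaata
Satb1: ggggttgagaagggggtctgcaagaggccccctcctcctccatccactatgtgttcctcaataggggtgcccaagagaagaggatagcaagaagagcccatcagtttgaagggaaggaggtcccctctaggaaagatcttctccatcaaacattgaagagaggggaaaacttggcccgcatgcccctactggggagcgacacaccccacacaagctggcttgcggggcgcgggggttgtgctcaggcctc
The Lef1 window held 1 match, CCACCC, 76 bases before the start, and the Satb1 window none. In 32851 windows of this length CCACCC was found in 28.1%, CCAAT in 33.8%, CTTTGAA in 4.46%, CTTTGAT in 3.21% and GTAAACA in 3.17%.

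In NK cells no gene of the 7 passed. Satb1 was at 7.34, 8.08, 11.2 and 10.4 UMIs per 10000 and kept the highest level of all gates (log2 change 0.48 ± 0.23 SE, edgeR adjusted p = 0.432). Tcf7, at 1.49, 1.17, 0.931 and 0.582, and Cd69, at 1.42, 1.03, 1.95 and 2.35, had unadjusted edgeR p of 0.0402 and 0.0227. Klf2 (1.53, 2.42, 2.98 and 2.39), Lef1 (0.0765, 0.808, 1.06 and 0.828) and Ccr7 (0.535, 0.0449, 0.567 and 0.0671) had adjusted p of 0.613, 0.499 and 0.974. S1pr1 stayed near the floor with 2, 1, 9 and 4 UMIs and did not pass the filter. In this gate 1.26% of the 5081 genes tested passed, and DESeq2 called 56 genes and also none of the 7.

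The few tumor cells of the DETC gate held genes that were near 0 in control DETC. Lef1 was counted 1 and 9 times in the control DETC and 34 and 18 times in the tumor gate, or 0.00166, 0.0129, 2.31 and 0.865 UMIs per 10000. Klf2 stood at 0.114, 0.116, 1.83 and 0.913. S1pr1 was counted 2, 3, 19 and 1 times, so its tumor level rested on skin tumor 1. Satb1 (0.548, 0.413, 8.90 and 1.44 UMIs per 10000) was also far higher in skin tumor 1, the library low in Tcrg-C1. Tcf7 (1.01, 0.961, 2.24 and 0.769) and Cd69 (1.13, 1.21, 2.51 and 0.673) overlapped.

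Tested on its own, the DETC gate gave no call of these genes. The log2 change of Lef1 was 7.30 ± 0.79 SE (edgeR adjusted p = 0.148) and that of Klf2 3.26 ± 0.39 (adjusted p = 0.191). For S1pr1 it was 6.88 ± 1.41 (adjusted p = 0.3085). The Lef1 value rests on 1 and 9 control UMIs and is no bound: it was 6.85 without control skin 1 and 9.46 without control skin 2. Each of these fits holds only 1 control library and so no spread between control skins. Of 10124 genes tested in the gate 0% passed in edgeR, with 1143 at an unadjusted p under 0.05, while DESeq2 called 188 genes. DESeq2, run as an alternative, called 3 of the 7 genes in this gate.

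The difference in tumor effect between DETC and CD8 T cells was tested in 1 model of all gates with the library as a block. It passed for S1pr1 (difference of log2 changes 7.87 ± 1.04 SE, edgeR adjusted p = 0.000804), Lef1 (5.91 ± 0.96, adjusted p = 0.00303) and Klf2 (2.87 ± 0.65, adjusted p = 0.0258), each larger in DETC. The size for S1pr1 rests on 2 and 3 control UMIs and is no bound. Without cycling cells the call was lost for Klf2 (2.32, edgeR adjusted p = 0.0818). It was kept for S1pr1 (6.58, adjusted p = 0.00442) and Lef1 (5.71, adjusted p = 0.00888). Without skin tumor 1 the difference kept its call for Lef1 (5.12, adjusted p = 0.0112) and lost it for S1pr1 (3.98, adjusted p = 0.526) and Klf2 (1.67, adjusted p = 0.173). Without control skin 1 none of the calls was kept (adjusted p of 0.0545, 0.15 and 0.531 for S1pr1, Lef1 and Klf2), and without control skin 2 that of Klf2 was lost (0.29). Of 9321 genes 1.86% passed for DETC. No gene of the 7 passed for CD4 T cells (0.0644% of genes passed, 559 at an unadjusted p under 0.05), Tregs (0.225% higher and 0.107% lower, 720), NK cells (0.0858%, 862) or ILC2 (2.44%, 1577). The Lef1, Tcf7, Ccr7 and Satb1 shifts are thus not shown to differ between CD8 T cells and CD4 T cells, or between CD8 T cells and Tregs.

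In ILC2 no gene of the 7 passed, beside 7.23% of the 7768 genes tested. Ccr7 went from 1.52 and 0.931 to 0.457 and 0.157 UMIs per 10000 (log2 change -2.48 ± 0.59 SE, edgeR adjusted p = 0.0582). Cd69 went from 1.19 and 1.04 to 0.457 and 0.354 (-1.76 ± 0.41, adjusted p = 0.0559). These tumor levels rest on 5 and 4 UMIs of Ccr7 and 5 and 9 UMIs of Cd69. With each cell thinned to 2000 UMIs the log2 changes shrank to -0.87 for Ccr7 (edgeR adjusted p = 0.493) and -0.11 for Cd69 (adjusted p = 0.96). When the 5% of cells with the most UMIs were left out, Ccr7 (-2.04, edgeR adjusted p = 0.045) and Lef1 (3.39, adjusted p = 0.0338) passed. Cd69 did not (-1.245, adjusted p = 0.103), and 623 genes passed in all. Lef1 was at 0.157, 0.130, 3.56 and 0.236 and Satb1 at 2.05, 2.39, 8.49 and 1.38, both high in skin tumor 1 alone, and Tcf7 was at 0.811, 0.809, 1.00 and 0.118. S1pr1 and Klf2 did not pass the filter, at 0.0750, 0.0650, 0.457 and 0.0787 and at 0.0886, 0.116, 0.0913 and 0.354. DESeq2 called 2 of the 7 in this gate, beside 591 of the 7768 genes tested. The plot of tumor changes sets all gates side by side.

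**Figure D3:**
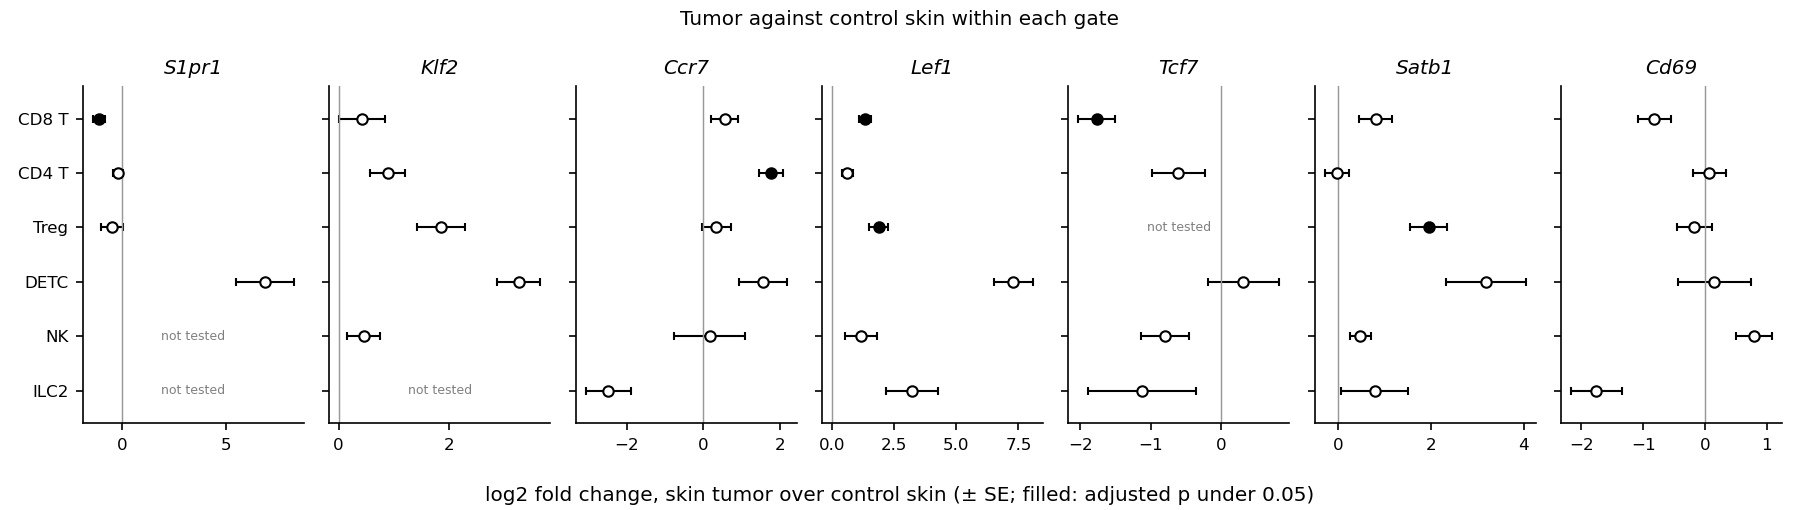
Log2 fold change of skin tumor over control skin for each gene (panels; x axis, log2 scale, ranges differ between panels) in the 6 gates tested (y axis). Points are edgeR estimates, bars 1 SE, filled points passed an adjusted p of 0.05; the filled points are Lef1, Tcf7 and S1pr1 in CD8 T cells, Ccr7 in CD4 T cells, and Lef1 and Satb1 in Tregs.

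The order of the gates in tumor differed from that in control skin. For Lef1 the means of all 6 gates lay between 0.945 in NK cells and 1.90 in ILC2, and every neighbour overlapped. In control skin they had spanned 0.00729 to 0.789. The ILC2 mean rested on skin tumor 1, at 3.56 against 0.236 in skin tumor 2. The DETC mean, next at 1.59, included the cells of skin tumor 1 that were low in Tcrg-C1. For Klf2 NK cells stayed highest (2.98 and 2.39 UMIs per 10000) and ILC2 lowest. For Ccr7 Tregs and CD4 T cells were highest and overlapped, with all other gates below both. The plot of levels gives every library.

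**Figure D4:**
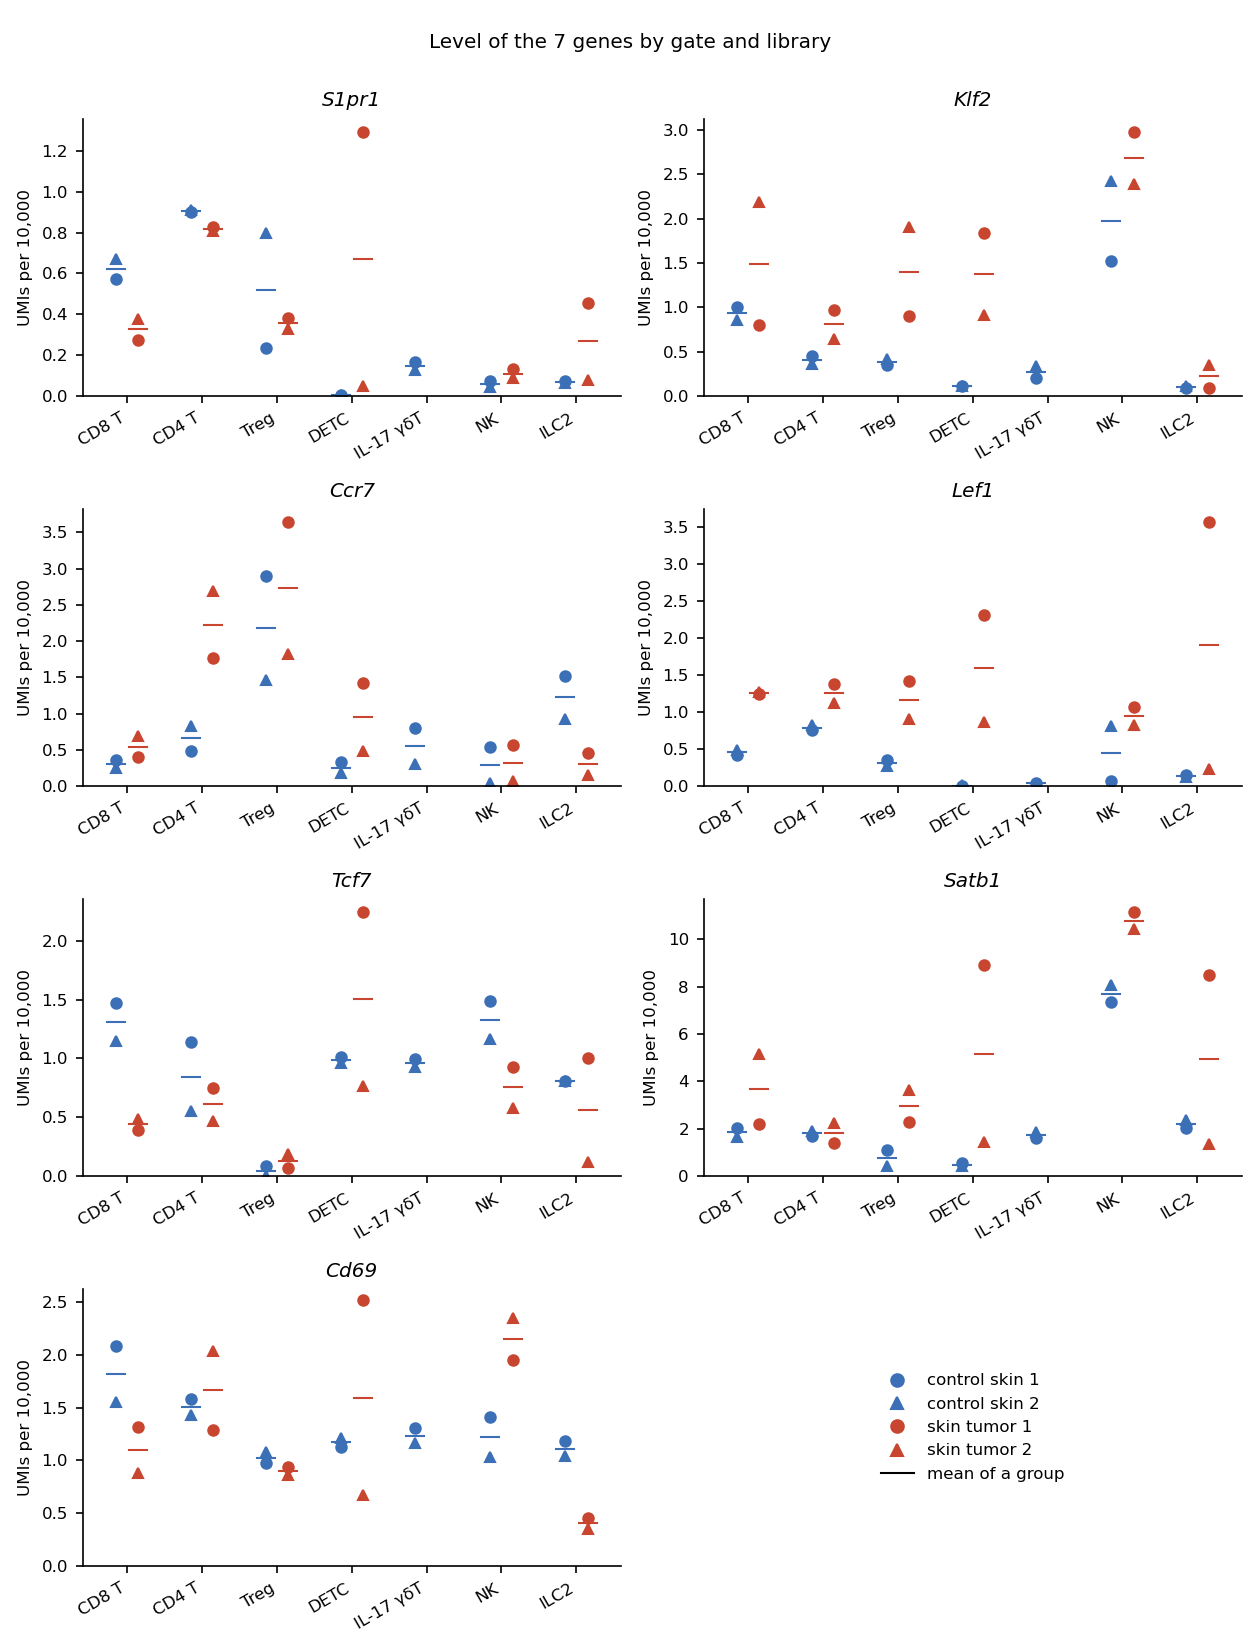
UMIs per 10000 of each gene (panels; y axis, linear from 0, ranges differ) by gate (x axis) in control skin 1 and 2 (blue circle and triangle) and skin tumor 1 and 2 (red circle and triangle), with a line at the mean of each group; gates with under 10 cells in a library are left out for that library. Lef1 is near 0 in control DETC and between 0.865 and 2.31 in the tumor gate, and Satb1 is highest in NK cells of both groups.

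Single cells were read for which of the genes were detected in the same cell. Among alpha beta T cells thinned to 2000 UMIs (341, 156, 593 and 211 cells), S1pr1 was found in 29.0%, 35.7%, 22.0% and 25.0% of cells with Klf2 and in 9.35%, 9.15%, 8.11% and 8.20% of cells without it. The direction was the same in all 4 libraries, on 9, 5, 22 and 7 cells with both. For Lef1 the share with S1pr1 was 33.3%, 66.7%, 16.8% and 13.2% in cells with Lef1 and 9.46%, 8.16%, 8.86% and 9.83% without. For Cd69 no order held in all libraries, and S1pr1 was found in 10.6%, 13.6%, 8.59% and 21.3% of cells with Cd69 and in 11.3%, 10.7%, 11% and 7.32% without. Lef1 was found in 7.35%, 10.5%, 38.7% and 0% of cells with Tcf7 and in 6.96%, 5.11%, 17.9% and 19.3% without, so their overlap differed between libraries. The share of cells with 3 or more of the 6 genes other than Cd69 was 4.69%, 3.85%, 11.6% and 9.95%. Cells of all alpha beta gates enter here, so these shares also carry the differences between gates. Klf2 was found in 9.09%, 8.97%, 16.9% and 13.3% of these thinned alpha beta T cells, in 1.37% and 2.17% of the thinned control DETC and in 54.35% to 83.3% of thinned neutrophils. The part of free RNA in joint detection was not tested.

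Across the 26 combinations of gate and library with at least 10 cells, the level of S1pr1 on a log2 scale correlated most among the 7 with Lef1 (Pearson r = 0.603) and little with Klf2 (r = 0.201). Klf2 went most with Satb1 (r = 0.621) and Lef1 with Tcf7 not at all (r = -0.067). Among 6118 other genes the nearest patterns were Clybl, Fyb and Cd5 for S1pr1 (r of 0.863, 0.857 and 0.848), Gimap5, AW112010 and Limd2 for Klf2 (0.832, 0.816 and 0.811), and Trim14, Phf11b and Parp14 for Lef1 (0.879, 0.877 and 0.858). For Tcf7 they were Ankrd44, Gm16093 and Pde7a (0.859, 0.84 and 0.807), for Satb1 Txk, Myb and Lgals9 (0.887, 0.84 and 0.823), for Ccr7 Ctss, Slfn5 and Pqlc1 (0.79, 0.757 and 0.744) and for Cd69 Hcst, Rasal3 and Tmsb10 (0.847, 0.808 and 0.786). The points share libraries and gates, so these are descriptions.

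Other genes of the same biology were read from 5 lists. The lists were chosen with earlier results of these data known, so their counts are descriptions. Over all genes tested 125 were higher and 89 lower of 6038 in Tregs, and 34 and 30 of 5081 in NK cells. In ILC2 363 were higher and 199 lower of 7768. In CD8 T cells they were 331 and 459 of 8131, and in CD4 T cells 371 and 307 of 7772. Of 8 homing and exit genes, 7 were tested in CD8 T cells and 1 was higher and 2 lower, with a median log2 change of -0.45 against 0.07 over all genes. Itgb7, an integrin subunit, was lower there (log2 change -1.46 ± 0.28 SE, edgeR adjusted p = 0.0125). Without cycling cells 1 gene of this list was higher and 0 lower in CD8 T cells, so the Itgb7 call was lost, and the median was 0.06. S1pr4, another sphingosine-1-phosphate receptor, was lower in CD4 T cells (-1.95 ± 0.33, adjusted p = 0.00784), and was the 1 gene of the list called there, of 6 tested. Tregs had 3 higher of 7 tested (median 0.40 against 0.01), among them Gimap4 (2.92 ± 0.41, adjusted p = 0.00856). NK cells had 1 higher of 6 (median 0.47). DETC and ILC2 had none of 7 and 6, with medians of 2.22 and 0.32 against -0.17 and 0.007 over all genes. In DETC 0 of the 10124 genes tested passed, so no list could hold a call there.

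Of 11 naive and stem-like genes 9 were tested in CD8 T cells, with 1 higher and 3 lower (median log2 change -0.59). Without cycling cells the counts were again 1 and 3, and the median was 0.0084. Il7r, the receptor of the survival cytokine IL-7, was lower (log2 change -2.43 ± 0.33 SE, edgeR adjusted p = 0.00332), as was Il6ra (-3.53 ± 0.45, adjusted p = 0.00262). Myb, a transcription factor of stem-like cells, was higher (2.87 ± 0.41, adjusted p = 0.00442). CD4 T cells had 1 higher, Slamf6 (1.83 ± 0.31, adjusted p = 0.00796), and 2 lower of 8 tested (median -0.68). Tregs, DETC and NK cells had no call among 8, 8 and 5 tested, with medians of -0.43, 1.16 and 0.0071. ILC2 had 2 higher of 10 (median -0.61).

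Most genes tested of the chosen residency list were lower in the conventional T cells. Over all genes 459 of 8131 were lower in CD8 T cells and 307 of 7772 in CD4 T cells. Of 11 genes, 8 of 9 tested were lower and 1 higher in CD8 T cells (median log2 change -1.70), and 6 of 10 lower and 2 higher in CD4 T cells (median -1.24). Without cycling cells 6 of 10 were lower and none higher in CD8 T cells. Itgae, the CD103 integrin of epithelial residents, was at 4.07, 4.16, 0.0266 and 0.0181 UMIs per 10000 in CD8 T cells (log2 change -7.42 ± 0.32 SE, edgeR adjusted p = 1.61e-05). Nr4a1 was lower there (-1.77 ± 0.22, adjusted p = 0.00262), and in CD4 T cells Rgs2 was lower (-2.01 ± 0.31, adjusted p = 0.00523) and Prdm1 higher (2.23 ± 0.31, adjusted p = 0.00357). Tregs had 2 lower of 8, NK cells 2 of 9, ILC2 6 of 10 and DETC none of 10. Cd69, often counted with these genes, did not pass in any gate.

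Of 10 effector and exhausted genes, chosen in the same way, 6 were higher and none lower in CD8 T cells (median log2 change 1.36) and likewise in CD4 T cells (median 1.75). Over all genes 331 of 8131 were higher in CD8 T cells and 371 of 7772 in CD4 T cells. Entpd1, the ectoenzyme CD39, changed by 3.84 ± 0.34 SE (edgeR adjusted p = 0.000661) and Eomes by 2.89 ± 0.35 (adjusted p = 0.00225) in CD8 T cells. Tox, a transcription factor of exhausted cells, changed by 1.70 ± 0.24 in CD4 T cells (adjusted p = 0.00355) and Gzmb by 2.76 ± 0.29 in NK cells (adjusted p = 0.00445). Tregs and DETC had no call among 8 and 9 tested, NK cells 1 higher of 7 and ILC2 2 lower of 6.

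The list of dissociation and early activation genes moved too, and these respond to enzymatic digestion. In CD8 T cells 3 were higher and 4 lower of 10, in CD4 T cells 3 higher and 1 lower of 10, in Tregs 3 higher of 9 and in NK cells 1 higher of 9, with none in DETC and ILC2. Hspa1a changed by 5.67 ± 0.49 SE (edgeR adjusted p = 0.000866), Hspa1b by 4.54 ± 0.61 (adjusted p = 0.0031) and Jun by 2.17 ± 0.31 (adjusted p = 0.00379) in CD4 T cells, and Junb by -1.82 ± 0.23 in CD8 T cells (adjusted p = 0.00274). The part of the digestion response in the 7 genes was not tested.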

How the data were processed

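CD45+ cells of 2 control skins and 2 skin tumors were profiled with 10x Genomics 3′ chemistry. The authors deposited raw UMI counts per gene and cell (mm10; Cell Ranger 7.1.0 in the processing notes, 7.0.1 in the file headers), 34893543 to 73904272 UMIs per library. Cells were kept with at least 100 genes, 1000 UMIs, at most 15% mitochondrial UMIs and log10 genes over log10 UMIs of at least 0.8. No doublet caller was run; lymphocyte gates allowed at most 10 UMIs per 10000 of 27 markers of other lineages. Counts were summed per library and gate and tested with edgeR 4.0.16 (quasi-likelihood, TMM, filterByExpr, Benjamini-Hochberg over all genes of the gate, threshold 0.05), where each library had 10 cells. SE is the size of the log2 change over the root of F. Intervals and floors of 3 counts cover counting error only. The members and lists were chosen with earlier results of these data known. Named list genes are the 4 of each list with the smallest adjusted p over gates. The gene of the homing list that was higher in CD8 T cells and the alleles of the cell line are not reported here. Alternatives included DESeq2 1.42.0. The tests were checked on simulated data in which 200 genes per gate changed by 2 on the log2 scale. The share of them recovered was 78% in CD8 T cells, 76% in CD4 T cells, 81% in Tregs and 75.5% in NK cells. It was 46.5% in ILC2 and 13.5% in DETC, so the absence of a call says little in these gates. Genes left unchanged in the simulation were called too. They numbered 13 in CD8 T cells, 14 in CD4 T cells, 13 in Tregs, 10 in NK cells, 11 in ILC2 and 4 in DETC.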

Additional observations from a re-analysis of the deposited data

Results flagged for a closer look

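The tumor effect differed between DETC and CD8 T cells, by edgeR's test of the difference itself, for 3 genes. The difference of log2 changes was 7.87 for S1pr1, 5.91 for Lef1 and 2.87 for Klf2, each larger in DETC. Without cycling cells S1pr1 and Lef1 kept the call and Klf2 lost it (2.32, edgeR adjusted p = 0.0818). Without control skin 1 none of the 3 was called (adjusted p of 0.0545, 0.15 and 0.531). Without skin tumor 1 Lef1 kept the call (5.12, adjusted p = 0.0112), and S1pr1 (3.98, adjusted p = 0.526) and Klf2 (1.67, adjusted p = 0.173) lost it. The tumor side of this comparison was 16 and 23 cells, and those of skin tumor 1 were low in Tcrg-C1 (0.748 UMIs per 10000) and held Klre1 at 2.92. Groups of 2 libraries allow no test for a library that lies far from the others.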

How the results depend on the processing

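Counts of calls moved with the processing, given here as genes, then as those of the 7. In CD8 T cells (790, 3) thinning to 2000 UMIs gave 384 genes, no filter on low counts 1372 and 5, no cycling cells 493, and leaving out 1 library 204 to 1885 and 1 to 5. In CD4 T cells (678, 1) DESeq2 gave 414, thinning 338, no filter 1166, and leaving out 1 library 136 to 842 and 0 to 2. In Tregs (214, 2) DESeq2 gave 118 and 1, thinning 106, gates of 2 UMIs 33 and 0, no filter 614, no cycling cells 93, and leaving out 1 library 8 to 367 and 0 to 3. In DETC (0, 0) DESeq2 gave 188 and 3, a ceiling of 5 for other-lineage UMIs 6 and 1, thinning 13 and 2, no filter 444 and 5, no cycling cells 10 and 1, and leaving out 1 library 24 to 2255 and 1 to 7. In NK cells (64, 0) the ceiling of 5 gave 36, thinning 35, no filter 423, no cycling cells 20, and leaving out 1 library 159 to 278 and 0 to 1. In ILC2 (562, 0) DESeq2 gave 2 of the 7, a ceiling of 20 gave 192 genes, the ceiling of 5 and no filter 1 of the 7 each, thinning 178 genes, no cycling cells 0 genes, no deepest cells 2 of the 7, and leaving out 1 library 244 to 2695 and 0 to 4. The replicate block gave 46 and 3 in DETC, 137 and 0 in NK cells and 1119 and 3 in ILC2. Deviations of same-numbered libraries from their group means correlated at 0.000385 in NK cells to 0.144 in ILC2. The labels give these libraries a shared number only, and whether they share a batch was not tested. For the difference from CD8 T cells, leaving out 1 library gave 0 to 6 of the 7 in DETC (3), 0 to 1 in NK cells (0) and 0 to 2 in ILC2 (0). S1pr1 in CD8 T cells turned to 0.0576 without cycling cells, and Satb1 in ILC2 (0.79) ran from -0.94 without skin tumor 1 to 1.56 without skin tumor 2. The causes were not tested. Of 832 values of the 7 genes under an alternative, 739 kept their side of the threshold, 67 gained a call, 24 lost one and 2 called ones turned; 40 that neither fit called also changed sign. Thinning and the difference test without cycling cells were chosen after seeing the data. With 2 libraries a group and 16 to 50 cells in several gates, small differences were not detectable.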
